A study of Mus musculus with 24 samples.

Results

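Interferon-stimulated genes are the genes that cells switch on when interferon binds its receptor. A list of 48 mouse interferon-stimulated genes was followed by symbol through 24 RNA libraries of CD8+ T cells. All 48 were among the 23420 genes of the files. Of these, 46 were among the 11470 genes with enough counts to be tested, and Ifi204 and Ifi44 were not. Ifi204 was at no more than 0.96 TPM and Ifi44 at no more than 1.22 TPM in any library (TPM is a transcript level relative to all transcripts of a library, corrected for gene length).

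The study asked how CD8+ T cells change during activation when the transcription factor TCF1, encoded by Tcf7, is deleted. The cells carried the transgenic OT-I T cell receptor and came from spleen and lymph nodes of 6 mice by way of CD8 microbeads. Mice 1 to 3 are labelled Tcf7 cKO (E8i-cre+, Tcf7FL/FL, OTI+) and mice 4 to 6 wildtype (E8i-cre-, Tcf7FL/FL, OTI+), so both groups carry the floxed alleles and the receptor. The design does not separate an effect of cre itself from one of the lost gene, and they cannot be told apart. E8i directs cre to CD8 lineage cells. Cells of each mouse were taken before plating (0 h) and after 4, 8 and 24 h on plates coated with antibodies to CD3 and CD28 at 1 ug/mL, with murine IL2 at 6 ng/mL. This gave 8 groups of 3 libraries, each made from 1000 sorted cells. No group was cultured without the antibodies. Activation, plating, IL2 and time in culture therefore cannot be told apart in the changes over time. The labels give neither strain nor age.

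Type I interferons act through the receptor chains IFNAR1 and IFNAR2, and interferon gamma through IFNGR1 and IFNGR2. Both receptors signal through JAK kinases to STAT proteins. STAT complexes that include IRF9 bind the interferon-stimulated response element (ISRE), while other STAT dimers bind the gamma-activated site (GAS). Resting T cells keep a low level of many of these genes, and activated CD8+ T cells themselves secrete interferon gamma.

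Promoters of 4 members are shown because these genes stand for the patterns described below. Isg15 and Ifit1 stand for genes that fell after 0 h, and Gbp2 and Igtp for genes that rose at 4 h. Each stretch is the 150 bases before the gene's start, from RefSeq on GRCm38.p6, read 5′ to 3′ along the gene's own strand. Capitals mark the ISRE core (GAAA, any 2 bases, GAAA) in either orientation and the GAS palindrome TTCNNNGAA.
Isg15: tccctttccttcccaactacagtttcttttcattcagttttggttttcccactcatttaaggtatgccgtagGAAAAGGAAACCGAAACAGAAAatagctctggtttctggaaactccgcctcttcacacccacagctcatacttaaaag
Ifit1: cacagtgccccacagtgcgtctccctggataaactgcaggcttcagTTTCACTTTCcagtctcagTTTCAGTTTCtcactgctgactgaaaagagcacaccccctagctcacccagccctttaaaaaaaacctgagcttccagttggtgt
Gbp2: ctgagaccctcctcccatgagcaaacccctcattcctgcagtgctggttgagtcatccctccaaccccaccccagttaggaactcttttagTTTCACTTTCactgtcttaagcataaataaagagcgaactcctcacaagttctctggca
Igtp: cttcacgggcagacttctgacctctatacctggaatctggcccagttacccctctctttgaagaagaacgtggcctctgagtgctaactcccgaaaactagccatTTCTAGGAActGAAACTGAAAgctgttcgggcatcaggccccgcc

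The Isg15 stretch lies at chr4:156200819-156200968 (minus strand), that of Ifit1 at chr19:34640739-34640888, that of Gbp2 at chr3:142620513-142620662 and that of Igtp at chr11:58199406-58199555 (all plus strand). Isg15 held 3 overlapping ISRE cores, which begin 78, 72 and 66 bases before the start. In Igtp a GAS match begins 45 bases and an ISRE core 34 bases before the start. Of the 48 members, 35 had a promoter window in the table, 43 windows of 300 bases in all (250 before the start and 50 after). An ISRE core lay in 19 of these 35 genes (54.3%), against 3.99% of all 27025 genes with a window. The GAS palindrome lay in 11 of 35 (31.4%) against 9.55%. All 8 of the GTPase genes with a window held an ISRE core and 5 of them a GAS match, while 11 of the 27 other members held an ISRE core and 6 a GAS match. A match describes letters and not a bound factor. Neighbouring members share loci, such as Ifit1, Ifit2 and Ifit3 on chromosome 19 and Gbp2, Gbp3, Gbp5 and Gbp7 on chromosome 3, so members are not independent of each other.

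The libraries held 5846265 to 9700397 expected counts, and 13694 to 17214 genes had a count. Gene-level Tcf7 leaned against the genotype labels at 3 of the 4 times, without a call at any of them. Its edgeR adjusted p was 0.386 at 0 h, 0.113 at 4 h and 0.184 at 8 h. It was at 681 to 719 TPM in the 0 h libraries labelled cKO and at 499 to 567 TPM in those labelled WT, and it was also higher in each library labelled cKO than in each labelled WT at 4 h (251 to 271 against 180 to 205 TPM). At 8 h it ranged from 73.6 to 127 TPM in cKO and from 52.6 to 87.35 TPM in WT, with overlap. At 24 h it was lower (35.7 to 38.3 against 62.6 to 77.0 TPM, log2 -0.90, edgeR adjusted p = 0.000221). These counts pool all exons and the labels do not say which are floxed, so they do not check the deletion, and every genotype direction below is that of the label. Markers of T cells (7 in the files, among them Cd3e and Cd8a) summed to 6628 TPM or more at 0 h. The CD4 T markers Cd4 and Foxp3 summed to no more than 1.56 TPM in any library. Myeloid markers summed to 152 to 165 TPM at 0 h in the libraries labelled cKO and to 145 to 155 TPM in those labelled WT. At 24 h these sums were 163 to 176 TPM and 154 to 167 TPM. Of these markers, Lyz2 had no count at 4 h or 8 h in either label. At 24 h Lyz2 and Fcer1g had no count in cKO and Cd14 had none in WT, so the sums came from the other myeloid markers. B cell markers summed to 41.8 to 53.3 TPM at 0 h in the libraries labelled cKO and to 33.2 to 37.3 TPM in those labelled WT, and to 1.22 to 18.4 TPM later. T cell markers were also higher in every library labelled cKO than in any labelled WT at each of the 4 times, B cell markers at 8 h too (3.28 to 6.13 against 1.22 to 3.09 TPM), and NK cell markers at 4 h (4.36 to 5.51 against 2.10 to 2.91 TPM) and 8 h (2.00 to 3.09 against 1.34 to 1.72 TPM). The part of such cells in the results was not tested. In bulk libraries fewer cells of a type and less RNA per cell cannot be told apart.

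Over the 24 h on the plates the list split into a pair of opposite patterns. The 10 guanylate-binding proteins (GBP) and immunity-related GTPases (IRG), which attack vacuoles that hold pathogens and are strongly induced by interferon gamma, rose together at 4 h and fell afterwards. Most of the other members, which include the classic antiviral effectors, fell by 4 h, and all but Bst2 were lower at 24 h than at 0 h. Both patterns appeared in the libraries of both labels.

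**Figure D1:**
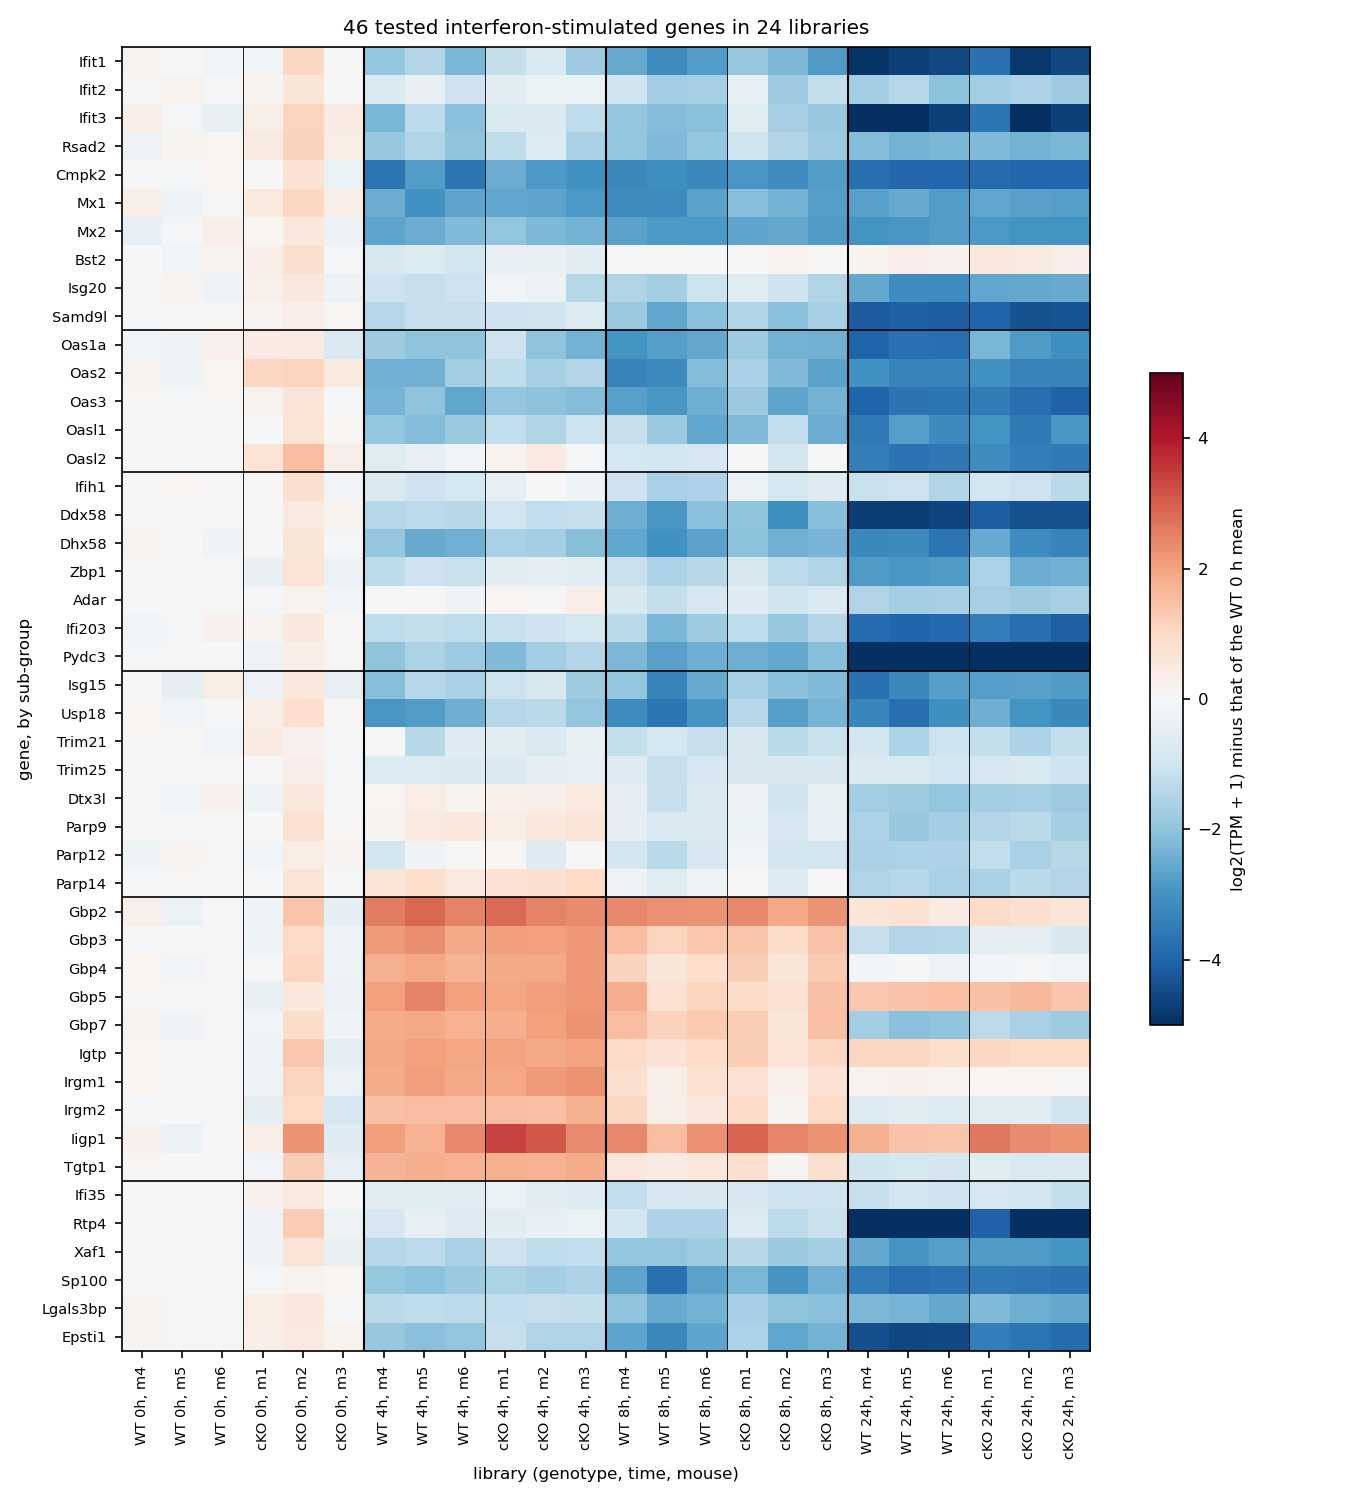
Rows are the 46 tested members by sub-group and columns are the 24 libraries by time, label and mouse (m). Colour gives log2(TPM + 1) minus that of the WT 0 h mean, with the scale saturating at 5 on either side. The 10 GTPase rows are red at 4 h in all 6 libraries, most other rows are blue from 4 h on, and the 0 h library of mouse 2 is red down nearly the whole column.

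In mice labelled WT, all 10 GTPases were called higher at 4 h than at 0 h, with log2 fold changes of 1.66 to 2.75 and a median of 2.06. Of all genes tested, 30.0% were called higher and 29.1% lower in that comparison, and their median was -0.04. In mice labelled cKO all 10 were also called higher (1.46 to 2.54, median 1.87), where 29.6% of all genes were higher and 27.6% lower. A call is an adjusted p under 0.05 in edgeR's quasi-likelihood test. Fitting the labelled cKO groups of these times alone, with their own estimate of the spread, called 6 of the 10.

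Gbp2, a GTPase that coats pathogen vacuoles, was at 132, 88.5 and 112 TPM in the WT libraries at 0 h and at 651, 817 and 616 TPM at 4 h. The groups did not overlap, and the log2 fold change was 2.75 with an adjusted p of 3.91e-06. It was then at 590, 540 and 531 TPM at 8 h, and ended at 168, 182 and 149 TPM by 24 h, which left it above its 0 h libraries without a call (0.64, adjusted p = 0.10). In the libraries labelled cKO it rose from 94.0, 290 and 81.8 TPM to 785, 622 and 572 TPM (2.16, adjusted p = 4.31e-05), and the 0 h library of mouse 2 stood apart from the other libraries of its group.

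Igtp, also called Irgm3, helps to keep host membranes free of GTPase coats. Its WT libraries held 168, 148 and 149 TPM at 0 h, 579, 645 and 605 TPM at 4 h, 305, 254 and 299 TPM at 8 h, and ended at 317, 321 and 289 TPM by 24 h. It thus stayed above every 0 h library at 24 h (log2 1.05, SE 0.309, adjusted p = 0.00556), a call that was lost without mouse 5 (0.99, adjusted p = 0.0581). Irgm1, a regulator of autophagy and of the other GTPases, rose from 92.2, 83.1 and 86.5 TPM to 317, 373 and 330 TPM in WT (2.06, adjusted p = 3.79e-06). By 24 h it was back at 96.8 to 102 TPM in WT and 91.5 to 94.2 TPM in the libraries labelled cKO. Igtp and Irgm2 overlap on the same strand of chromosome 11, so their reads may be shared between them. Tgtp1 has a near-identical copy, Tgtp2, which makes its counts uncertain.

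The steepest rises in WT after that of Gbp2 were in Gbp5 (2.74, adjusted p = 1.94e-11), an activator of inflammasomes, Iigp1 (2.52, adjusted p = 0.00194) and Gbp3 (2.29, adjusted p = 1.61e-07). Gbp5 started from only 2.08 to 2.28 TPM and reached 12.2 to 16.6 TPM. Iigp1, an effector against intracellular parasites, started from 2.51 to 3.99 TPM and reached 13.3 to 21.2 TPM. It was the 1 GTPase whose WT mean was highest at 8 h rather than at 4 h, while in the libraries labelled cKO all 10 had their highest mean at 4 h.

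The summed level of the 10 GTPases was 689 to 785 TPM in WT at 0 h, 2834 to 3251 TPM at 4 h, 1467 to 1779 TPM at 8 h and 768 to 851 TPM at 24 h. At 4 h the 3 members with the highest mean level in WT were Tgtp1 (754 ± 36.1 TPM, SD, n = 3), Gbp2 (695 ± 107) and Igtp (610 ± 33.5), whereas at 0 h they were Epsti1 (363 ± 32.0), Sp100 (297 ± 10.3) and Pydc3 (224 ± 9.36). From 4 h to 8 h, 6 of the 10 were called lower in WT and 8 of 10 in mice labelled cKO. The fitted change was below 0 in 9 of 10 in WT and in all 10 in cKO. Of all genes, 19.7% and 19.6% were called lower in these comparisons and 21.9% and 20.8% higher. The count of GTPases called lower in WT was 2 without mouse 5. Without the 8 h libraries of mice 2 and 5, a choice made after the data were seen, it was 6 in WT and 3 in mice labelled cKO. From 8 h to 24 h, 6 of 10 were called lower in each label, and the fitted change was below 0 in 8 in WT and 9 in cKO. Of all genes, 34.1% were called lower and 24.7% higher in WT, and 32.1% lower and 25.2% higher in cKO.

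After 24 h the GTPases no longer moved as a group. Against 0 h, Gbp5, Igtp and Iigp1 were called higher and Gbp3, Gbp7 and Tgtp1 lower in WT, with 36.9% of all genes higher and 40.1% lower. This became 1 higher and 2 lower without mouse 5, 2 and 2 without mouse 4 or mouse 6, and 5 and 4 with only the groups compared. Gbp5, Gbp3 and Gbp7 were called in each of the 3 fits that left out a WT mouse. Gbp7 was at 5.05 to 6.71 TPM, below its 21.3 to 26.7 TPM at 0 h (log2 -2.06). In mice labelled cKO 2 of the 10 were higher and 4 lower, with 37.3% of all genes higher and 39.0% lower. Without mouse 2 this became 5 higher and 2 lower, without mouse 1 or mouse 3 it was 1 and 4, and with only the groups compared 1 and 1.

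**Figure D2:**
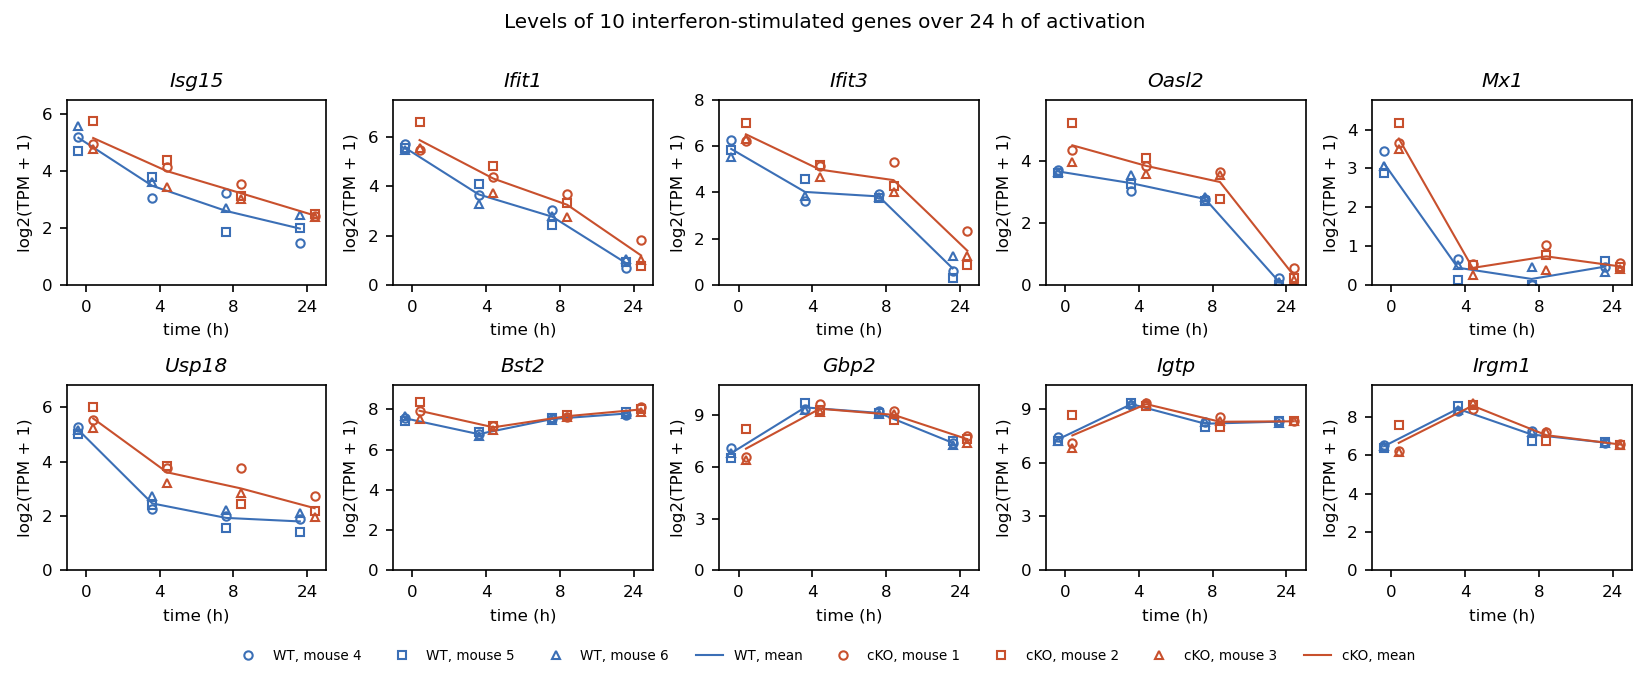
The level of 10 members, log2(TPM + 1), is plotted against time in h (points evenly spaced), with 1 symbol per mouse and lines through the group means of log2(TPM + 1). Gbp2, Igtp and Irgm1 peak at 4 h, Bst2 dips at 4 h and returns, and the other 6 are near their lowest level at 24 h.

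Outside the GTPases, 28 of the 36 tested members were called lower at 4 h in WT and 2 higher (Parp9 and Parp14). Parp9 was not called without mouse 5 or mouse 6. In mice labelled cKO 30 were lower and 1 higher (Parp14). Without mouse 2 they were 24 lower and 4 higher, with Adar, Dtx3l and Parp9 besides Parp14. Of all genes tested, 29.1% were called lower and 30.0% higher at 4 h in WT, and 27.6% and 29.6% in cKO. By 24 h, 35 of the 36 were lower than at 0 h in each label, with medians of -3.87 in WT and -3.57 in cKO. The exception was Bst2. The median over all genes was -0.08 in WT and -0.07 in cKO. Of all genes, 40.1% were called lower at 24 h than at 0 h in WT and 39.0% in cKO. The count of 35 held in every alternative fit.

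The 10 antiviral effectors fell at 4 h without exception in both labels (medians -1.83 in WT and -1.52 in cKO). Ifit1, which binds viral RNA lacking host cap methylation, was at 51.3, 45.4 and 42.6 TPM in the WT libraries at 0 h, 11.4, 16.0 and 8.77 TPM at 4 h, 7.29, 4.45 and 5.91 TPM at 8 h, and ended at 0.59, 0.88 and 1.09 TPM by 24 h. The 0 h and 24 h libraries did not overlap, and the log2 fold change was -5.70 (SE 0.505, adjusted p = 1.29e-08). Ifit3, its partner, went from 75.2, 56.6 and 45.7 TPM to 0.50, 0.25 and 1.37 TPM (-6.31, adjusted p = 2.37e-08). A copy of Ifit3, Ifit3b, is not among the genes of the files, so reads of both may be counted as Ifit3.

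Mx1, a dynamin-like GTPase that blocks influenza viruses, was at 6.41 to 9.90 TPM in WT at 0 h and already at 0.10 to 0.59 TPM at 4 h. The libraries labelled cKO went from 11.5, 17.0 and 10.3 TPM to 0.45, 0.43 and 0.20 TPM (log2 -5.06, adjusted p = 1.41e-12), and there was no overlap in either label. Cmpk2, a mitochondrial nucleotide kinase encoded beside Rsad2, had 596 counts over the 3 WT libraries at 0 h and 2 at 24 h. That is a ratio of 372-fold lower with an exact 95% counting interval of 103 to 3083. Mx2 had 222 and 3 counts (92.5-fold lower, 31.2 to 452). These intervals cover counting error only.

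Bst2, or tetherin, which holds budding virions at the cell surface, behaved differently from the rest of its group. In WT it was at 190, 171 and 206 TPM at 0 h, 108, 118 and 100 TPM at 4 h, 182, 190 and 179 TPM at 8 h, and ended at 211, 235 and 219 TPM by 24 h. The fall at 4 h was called (log2 -0.73, adjusted p = 0.000107), as was the rise from 4 to 8 h (0.82, adjusted p = 4.77e-05). Bst2 was the 1 member called higher in that step in WT and likewise in mice labelled cKO (0.60, adjusted p = 0.00142). At 24 h against 0 h it was not called in either (0.26, adjusted p = 0.0877, and 0.09, adjusted p = 0.548). In WT it was called higher with the mouse as a block (0.26, adjusted p = 0.0435), with DESeq2 (0.33), with RLE factors (0.33), without a filter on low counts (0.42) and with only the groups compared (0.25), and in cKO without mouse 2 (0.36, adjusted p = 0.0213).

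The 5 members of the OAS family make the 2-5A messenger that activates RNase L, or are its enzymatically inactive relatives. Their summed level fell from 75.0 to 86.8 TPM in WT at 0 h to 20.5 to 23.3 TPM at 4 h and 1.63 to 2.72 TPM at 24 h. Oas3 fell by 2.39 on the log2 scale at 4 h. Oasl2 fell least of the family by 4 h in WT. It was at 12.3, 11.4 and 11.6 TPM at 0 h and still at 7.30, 8.65 and 10.7 TPM at 4 h, without a call (-0.31, adjusted p = 0.389). It was then at 5.55 to 6.17 TPM at 8 h and at no more than 0.17 TPM at 24 h (-7.12 from 0 h, adjusted p = 4.96e-10). In mice labelled cKO all 5 of the family were called lower at 4 h (27.6% of all genes). Oasl2 was there at 19.4, 36.7 and 14.6 TPM at 0 h, highest in mouse 2. At 4 h it was at 13.4, 16.4 and 11.0 TPM, so these libraries overlapped. No member of the family was called for a difference between labels in this step. Oas1a has near-identical relatives, which makes its counts uncertain.

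Among the sensors of foreign nucleic acid, Ddx58 (RIG-I) went from 44.6, 39.5 and 44.5 TPM in WT at 0 h to 0.66, 0.69 and 0.82 TPM at 24 h (log2 -5.83, adjusted p = 2.94e-15). Dhx58 (LGP2) fell by 2.41 at 4 h. Pydc3, a pyrin domain protein, stood at 217 to 234 TPM at 0 h and 1.14 to 1.84 TPM at 24 h in WT (-7.22, adjusted p = 5.50e-16). The RNA editor Adar held its level at 4 h (0.02) and was lower at 24 h, at 8.53 to 10.2 TPM against 30.1 to 32.2 TPM at 0 h.

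In the ISG15 system, Isg15, the ubiquitin-like modifier, was at 35.6, 24.9 and 46.9 TPM in WT at 0 h, at 7.34, 12.7 and 11.1 TPM at 4 h and at 1.80, 2.94 and 4.52 TPM at 24 h (log2 -3.49 from 0 h, adjusted p = 7.42e-11). Usp18, which removes ISG15 and blocks the type I receptor, fell most steeply of this group at 4 h, from 38.1, 31.8 and 35.3 TPM to 3.80, 4.26 and 5.66 TPM (-2.85, adjusted p = 6.08e-08). Parp14, an ADP-ribosyltransferase, rose instead from 14.8 to 16.1 TPM to 22.3 to 29.5 TPM at 4 h (0.81 in WT and 0.77 in cKO). Its neighbours Parp9 (0.51 in WT, called; 0.29 in cKO, not called) and Dtx3l also had higher means at 4 h than at 0 h, though Dtx3l was not called. Parp9 and Dtx3l overlap on opposite strands and the libraries do not mark strand, so their reads cannot be fully told apart.

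Of the 6 other tested members, Epsti1 and Sp100 were the most abundant in WT at 0 h. Epsti1 went from 342 to 400 TPM to 83.7 to 97.6 TPM at 4 h (log2 -1.92, adjusted p = 9.18e-08) and to 14.3 to 16.1 TPM at 24 h (-4.54). The nuclear body protein Sp100 fell by 1.86 at 4 h. Rtp4, a receptor transport protein, was at 46.9 to 65.1 TPM at 4 h in WT against 85.4 to 86.3 TPM at 0 h. These libraries did not overlap, though the fall was not called. In mice labelled cKO the fall was called by edgeR (-0.83, adjusted p = 0.0405), but not with the mouse as a block (-0.73, adjusted p = 0.0891). By 24 h Rtp4 had dropped to 0.47 to 0.87 TPM in WT (-6.82 from 0 h, adjusted p = 5.42e-09).

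Of 40 pathway genes outside the member list, 30 were tested. In WT 11 were called higher and 12 lower at 4 h (30.0% and 29.1% of all genes), and 7 higher and 22 lower at 24 h against 0 h (36.9% and 40.1% of all genes). The only tested ligand was Ifng, which encodes interferon gamma. It was at no more than 0.69 TPM in any 0 h library, and at 283, 234 and 212 TPM in WT at 4 h (log2 9.79, adjusted p = 2.70e-13; the fold rests on a start near 0). It stayed at 275 to 383 TPM at 8 h and 114 to 153 TPM at 24 h. Ifnb1 and the 4 Ifna genes of the list did not pass the filter on low counts.

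All 5 tested receptor genes were lower at 24 h than at 0 h in both labels. Ifngr1 first rose, from 199 to 232 TPM in WT to 497 to 554 TPM at 4 h (log2 1.39), and then fell to 28.2 to 34.0 TPM at 24 h (-2.76 from 0 h). Ifnar1 went from 82.8 to 92.3 TPM to 20.1 to 22.5 TPM at 24 h (-1.95), Ifnar2 fell by 1.09 and Ifngr2 by 1.75. The kinase Jak2 rose at 4 h from 9.89 to 11.2 TPM to 58.0 to 70.4 TPM (2.67, adjusted p = 5.68e-20), and Jak1 fell by 2.32 at 24 h.

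Among the transcription factors, Stat2 (0.54 in WT, 0.47 in cKO) and Irf1 (1.46 and 1.20), an activator of GBP genes, were called higher at 4 h. At 24 h Stat2 was lower than at 0 h (-2.40 in WT) and so was Irf9 (-2.34). Irf7, which amplifies type I interferon production, fell throughout, from 76.7 to 90.8 TPM in WT at 0 h to 37.6 to 40.9 TPM at 4 h and 0.29 to 0.63 TPM at 24 h (-7.30). The feedback inhibitor Socs1 rose from 8.58 to 16.2 TPM to 87.9 to 158 TPM at 4 h (3.39, adjusted p = 2.42e-10). Irf8, a marker of plasmacytoid dendritic cells as well, rose from no more than 2.16 TPM in WT to 498 to 560 TPM at 4 h. The 4 plasmacytoid dendritic markers, Irf8 among them, summed to 499 to 561 TPM in WT at 4 h. Another of them, Siglech, had a count in each group at 0, 4 and 8 h and in no library at 24 h. The part of such cells in the Irf8 levels was not tested.

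**Figure D3:**
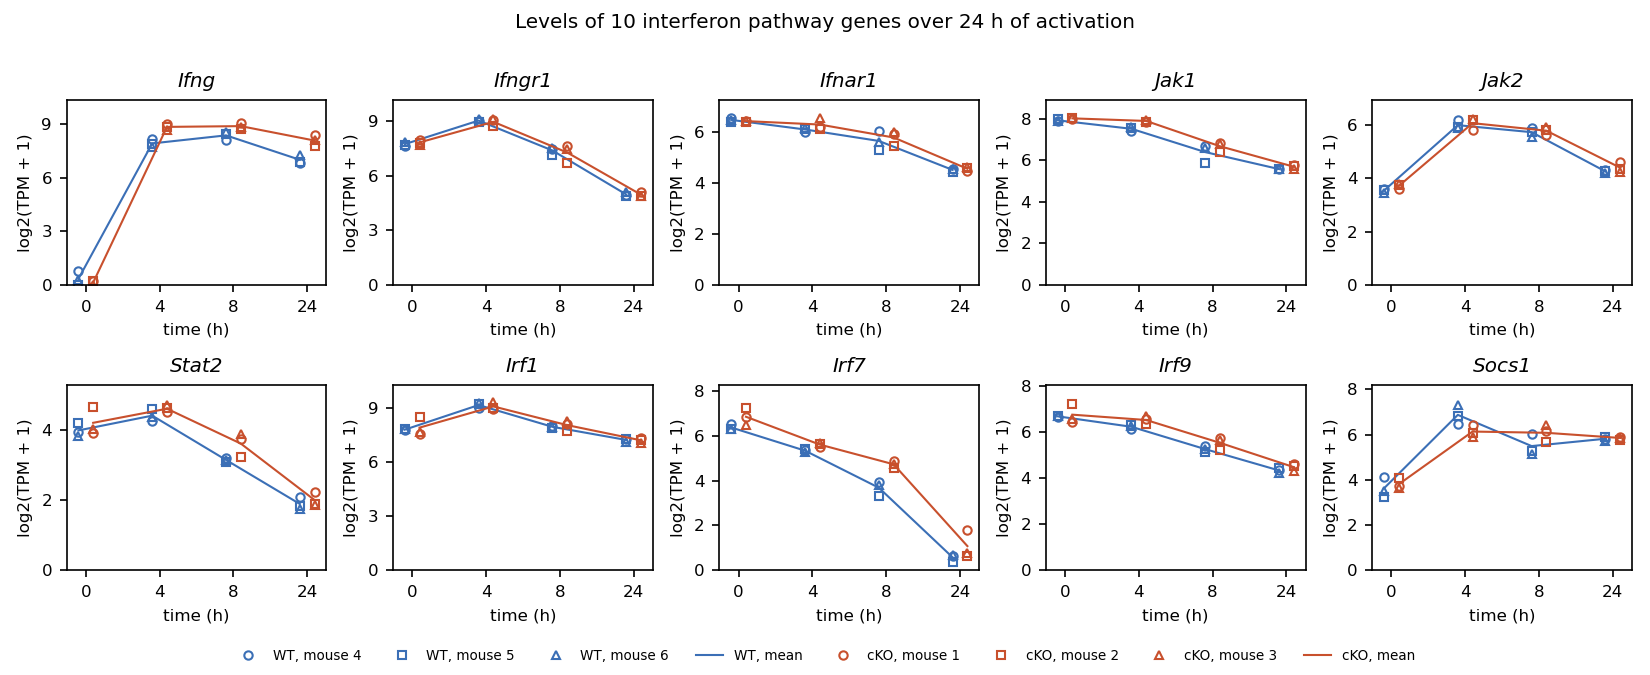
The level of 10 interferon pathway genes, log2(TPM + 1), is plotted against time in h (points evenly spaced), with 1 symbol per mouse and lines through the group means. Ifng, Jak2 and Socs1 rise from 0 to 4 h, Ifngr1 and Irf1 peak at 4 h, and Irf7 falls at each step.

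Before activation 1 library stood apart. The 0 h library of mouse 2, labelled cKO, was the highest of the 6 resting libraries in 44 of the 46 members, while it was the highest in 16.8% of all genes. It was highest in all 10 GTPases, by a median of 1.15 in log2 CPM over the median of the other 5 libraries, and in 34 of the 36 other members, by a median of 0.68. The 48 members summed to 5207 TPM in this library and to 2889 to 3169 TPM in the other 5.

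Gbp2 was at 290 TPM in mouse 2 and at 81.8 to 132 TPM in the other 5 resting libraries. Igtp was at 395 against 111 to 168 TPM, Tgtp1 at 524 against 169 to 230 TPM, Rtp4 at 206 against 71.2 to 86.3 TPM and Iigp1 at 19.1 against 1.75 to 4.30 TPM. The pathway genes Irf1 (365 against 189 to 226 TPM) and Irf9 (150 against 87.2 to 104 TPM) were also highest there. Ifng was at 0.15 TPM in mouse 2, within the 0.00 to 0.69 TPM of the others. It held 9637768 expected counts against 6308908 to 9535612. Its B cell marker sum was 41.8 TPM (33.2 to 53.3 TPM in the others), its myeloid sum 165 TPM (145 to 160), its plasmacytoid dendritic sum 4.43 TPM (0.78 to 3.40) and its red cell sum 5.93 TPM (0.00 to 0.42). Irf8, which is also a pathway gene, made up 3.26 TPM of that plasmacytoid dendritic sum (0.17 to 2.16 TPM in the others). The part of these values in the result was not tested. At 4 h mouse 2 was the highest of 6 in 13 of 46 members (15.8% of all genes), none of them a GTPase. Red cell markers summed to 21.4 TPM in that library and to at most 0.59 TPM in the other 5 at 4 h, and their part was not tested. At 8 h mouse 2 was the highest in 3 of 46 members (13.2% of all genes), none of them a GTPase. It was the lowest in 9 of the 10 GTPases at 8 h (1674 of 11470 genes were lowest there), and at 24 h it was the highest in 5 of 46 (15.8% of all genes).

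**Figure D4:**
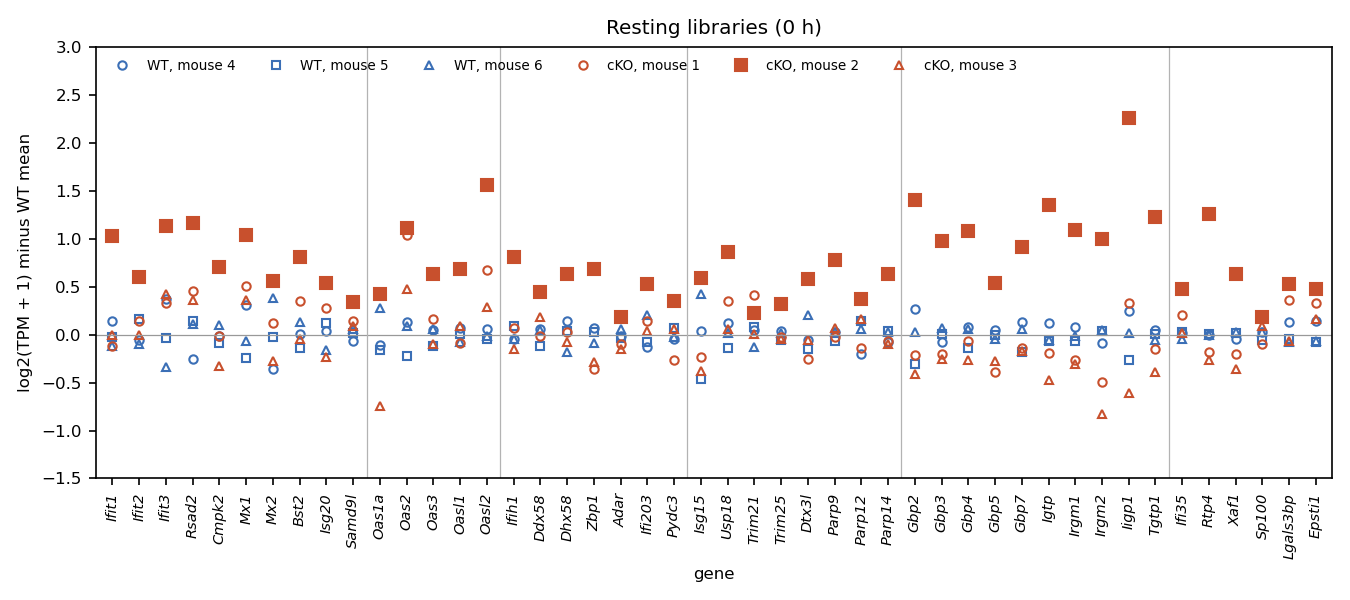
For each of the 46 members, the 6 resting libraries are shown as log2(TPM + 1) minus the mean of the 3 libraries labelled WT, with vertical lines between sub-groups. The filled squares of mouse 2 lie above the other 5 libraries in nearly all members.

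Against that spread, no member was called between the labels at 0 h by edgeR, where 0.445% of all genes were. T cell markers (7375 to 7822 against 6628 to 7088 TPM) and B cell markers moved with the labels at this time, and their part in the differences was not tested. At an unadjusted p under 0.05 there were 7 of 46 (7.37% of all genes), all higher in cKO, and DESeq2 called 1, Oasl2. The share of all genes that DESeq2 called is not given here or at the later times, and edgeR's shares do not stand in for it. The fitted difference was above 0 in 44 of 46 members, with a median of 0.25 against -0.00 over all genes. Without mouse 2 it was above 0 in 16 of 46 and the median was -0.06. All 10 GTPases were then below 0 (median -0.31), and Irgm2 was called lower (-0.72, adjusted p = 0.0179).

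Oasl2 had the largest difference at 0 h among members at 10 TPM or more, with 19.4, 36.7 and 14.6 TPM in the libraries labelled cKO and 12.3, 11.4 and 11.6 TPM in those labelled WT. The groups did not overlap (log2 0.98, SE 0.282, adjusted p = 0.215). Without mouse 2 the difference was 0.50. Oas2 (0.94), Mx1 (0.68), Ifit3 (0.63), Gbp2 (0.47), Usp18 (0.44), Igtp (0.44) and Rtp4 (0.43) followed, each with an adjusted p of 0.540 or more. In 6 of 46 members every library labelled cKO was above every one labelled WT (9.58% of all genes), and in 0 below (4.87%).

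At 4 h edgeR again called no member (0.820% of all genes), with 9 at an unadjusted p under 0.05 (11.8% of all genes), all higher in cKO. DESeq2 called 2, Usp18 and Epsti1. T cell markers (2986 to 3199 against 2657 to 2823 TPM) and NK cell markers were also higher in all libraries labelled cKO. The median was 0.24 and 40 of 46 differences were above 0. In 15 of 46 members the labelled cKO libraries lay wholly above those labelled WT (10.5% of all genes), none of them a GTPase, and in 0 below (5.81%). The median of the GTPases was 0.03 and that of the other 36 members 0.29.

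Usp18 showed the largest difference among members at 10 TPM or more, at 12.6, 13.3 and 8.38 TPM in cKO against 3.80, 4.26 and 5.66 TPM in WT. The libraries did not overlap, and the log2 fold change was 1.29 (SE 0.347, adjusted p = 0.0896, between 2.32e-05 and 0.321 over 15 alternatives, of which 5 called it). Ifit3 was at 34.0, 35.4 and 24.1 TPM against 11.5, 23.1 and 13.3 TPM (0.95, adjusted p = 0.361). Epsti1 was at 161, 127 and 128 TPM against 97.6, 83.7 and 90.7 TPM (0.57, adjusted p = 0.224). Iigp1 (0.92), Ifit1 (0.69), Zbp1 (0.65), a sensor of Z-form nucleic acid, Isg20 (0.64) and Oasl2 (0.59) had adjusted p of 0.329 or more.

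At 8 h no member was called by edgeR (0.183% of all genes), 8 had an unadjusted p under 0.05 (9.93% of all genes) and DESeq2 called 3, Usp18, Ifih1 and Epsti1. T cell (1912 to 2158 against 1638 to 1860 TPM), B cell and NK cell markers again lay wholly above in cKO. The median was 0.28 with 38 of 46 above 0, and that of the GTPases was -0.03. Mouse 1, labelled cKO, was the highest of 6 in 32 of 46 members at this time (18.5% of all genes), and without mouse 1 the median was 0.09. Ifit3 was at 38.6 TPM in mouse 1, at 18.2 and 15.3 TPM in the other mice labelled cKO and at 12.4 to 14.3 TPM in WT (log2 0.81, adjusted p = 0.538). Epsti1 (0.64), Iigp1 (0.44), Isg20 (0.41), Sp100 (0.39), Lgals3bp (0.35), Zbp1 (0.29) and Rtp4 (0.27) followed. In 8 of 46 members the labelled cKO libraries were wholly above (5.82% of all genes) and in 0 below (4.73%).

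At 24 h no member was called by edgeR (0.105% of all genes), 6 had an unadjusted p under 0.05 (3.69% of all genes) and DESeq2 called 2, Oas1a and Epsti1. T cell markers were at 1392 to 1525 TPM in cKO against 1307 to 1364 TPM in WT. The median was 0.13 with 32 of 46 above 0. Epsti1 was at 32.4, 27.6 and 24.2 TPM in cKO against 16.1, 14.3 and 14.8 TPM in WT, without overlap (log2 0.90, SE 0.223, adjusted p = 0.354, between 4.67e-05 and 1 over 14 alternatives, of which 3 called it). Gbp3 was at 12.1, 11.8 and 9.47 TPM against 7.22, 5.58 and 5.78 TPM (0.84, adjusted p = 0.788), and Iigp1 at 25.7, 21.0 and 19.4 TPM against 13.4, 10.4 and 10.0 TPM (0.96, adjusted p = 1). Zbp1 (0.82), Tgtp1 (0.25), Parp9 (0.23), Gbp2 (0.21) and Bst2 (0.21) were the other 5 by size. Mouse 1 was the highest of 6 in 25 of 46 members (19.4% of all genes). In 9 of 46 the labelled cKO libraries were wholly above (7.24% of all genes) and in 1 below (5.89%).

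**Figure D5:**
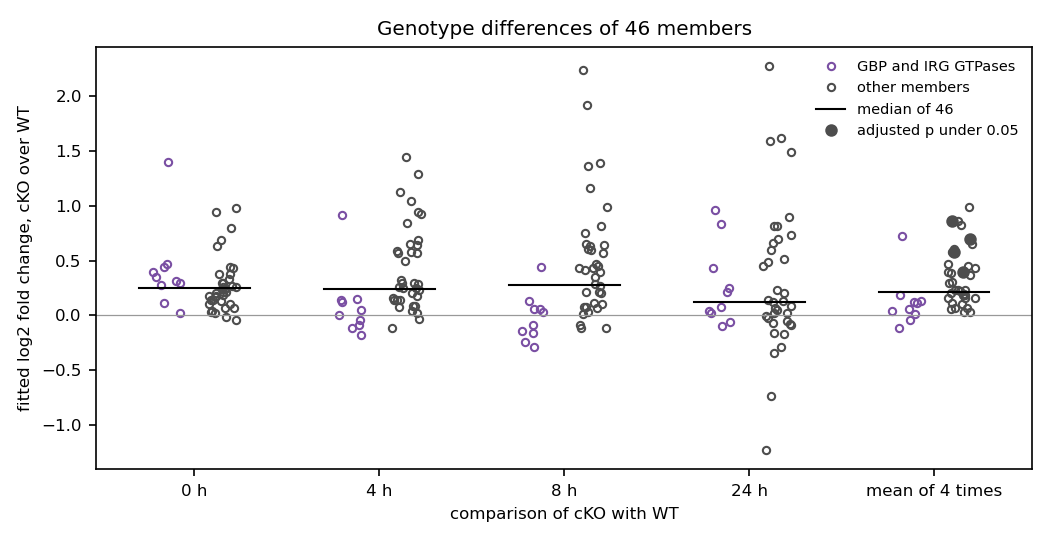
Each circle is the fitted log2 fold change of 1 of 46 members, cKO over WT by label, at each time and for the mean of 4 times per mouse, with GTPases and other members side by side. Bars are medians over the 46 members (0.25, 0.24, 0.28, 0.13 and 0.21), and the 4 filled circles are those with an adjusted p under 0.05, all in the mean of 4 times.

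Averaging the 4 times of each mouse gave 1 log2 value per animal and a comparison of 3 mice with 3. In this comparison 4 members were called higher in mice labelled cKO and 0 lower by limma, while 1.10% of all genes were called higher and 0.410% lower. The median difference was 0.21 against -0.01 over all genes, and 44 of 46 were above 0. Every mouse labelled cKO was above every mouse labelled WT in 15 of 46 members (7.70% of all genes), and below in 0 (7.72%). The number of calls depended on single mice: it was 17 without mouse 3, 2 without mouse 2 or mouse 4 and 1 without mouse 5. The share of all genes called in these fits is not given.

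Oasl2 had mean log2 CPM (counts relative to the library total) of 3.62, 3.44 and 3.06 in mice 1 to 3 and 2.74, 2.52 and 2.75 in mice 4 to 6. Its difference of 0.70 (SE 0.136, adjusted p = 0.00436) was called in all 12 alternatives. Usp18 was at 3.89, 3.53 and 3.16 against 2.67, 2.39 and 2.94 (0.86, adjusted p = 0.0422) and was called in 6 of 12. Ifih1 (MDA5), a sensor of long double-stranded RNA, was at 3.67, 3.83 and 3.38 against 3.23, 3.03 and 2.87 (0.58, adjusted p = 0.0115) and was called in 7 of 12. Zbp1 differed by 0.39 (adjusted p = 0.0259) and was called in 5 of 12. At 0 h alone it was at 72.4, 150 and 76.4 TPM in cKO against 97.5, 94.7 and 87.2 TPM in WT. Only mouse 2 was then above the WT libraries, and mice 1 and 3 were below them. In the means of these 4 genes no mouse labelled cKO fell among those labelled WT. Ifit3 (0.86), Iigp1 (0.73), Epsti1 (0.58), Ifit1 (0.47) and Rtp4 (0.45) were not called, with adjusted p of 0.0649 to 0.623.

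Of the 30 pathway genes, 3 were called higher in the mean of 4 times and 0 lower. Irf7 differed by 0.63 (adjusted p = 0.00828) and Ifng by 0.51 (adjusted p = 0.00766), each called in all 12 alternatives, and Jak1 by 0.19 (adjusted p = 0.0401), called in 6 of 12. At single times Ifng was called higher at 4 h, at 521, 448 and 414 TPM in cKO against 283, 234 and 212 TPM in WT (log2 0.88, adjusted p = 0.0335, called in 9 of 15 alternatives). Irf7 was called higher at 8 h, at 28.7, 22.7 and 25.4 TPM in cKO against 14.2, 8.88 and 13.1 TPM in WT (log2 1.04, adjusted p = 0.0369). This call was lost without mouse 4, 5 or 6, without the 8 h libraries of mice 2 and 5, and with limma on log2(TPM + 0.5). At 24 h Ifng was again called, at 330, 215 and 276 TPM against 114, 119 and 153 TPM (1.09, adjusted p = 0.0268, called in 8 of 14). Stat2 (0.24) and Irf9 (0.16) were not called in the mean of 4 times.

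An interaction term asked if the gap between labels at 4, 8 or 24 h was another than at 0 h, and no member was called by edgeR (0.00872%, 0.00872% and 0.0174% of all genes). At an unadjusted p under 0.05 there were 0, 1 and 1 members, against 7.11%, 7.95% and 4.29% of all genes. The GTPases had interaction medians of -0.30 at 4 h and -0.39 at 8 h, with all 10 below 0. Without mouse 2 the medians were 0.34 and 0.44 and all 10 were above 0. That fit leaves out all 4 libraries of this mouse, and the part of its 0 h library alone was not tested.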

How the data were processed

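The submitters' processing notes name STAR, RSEM, DESeq2 and the mm10 build, with versions not given in the sources used here. Libraries were made with Smart-seq2 per the labels' protocols, without molecular identifiers, so intervals cover counting error only. Per the file headers, each deposited file gives the expected count, RSEM's estimate of a gene's reads, and TPM. FPKM was not used. Levels are the authors' TPM. Tests used these counts after rounding, in edgeR 4.0.16 under R 4.3.3 (DESeq2 1.42.0 as an alternative), with TMM scaling, its filter on low counts over the 8 groups (11470 genes kept) and 1 robust quasi-likelihood model. There were 16 comparisons: the labels at each of 4 times, 8 steps in time, 3 interactions and the mean of 4 times per mouse (limma 3.58.1). Tests are two-sided, with Benjamini-Hochberg adjustment within each comparison over all genes tested. SE is the absolute log2 fold change over the root of its F statistic. The 0 floor was 3 counts over a group. Positions come from GENCODE on GRCm38 for 47 of 48 members. The scripts were tested on simulated data.

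Each mouse was sampled at all times, so its number pairs libraries in time. Deviations of same-mouse libraries from group means correlated at -0.0846 to 0.163 (median 0.0181, 3 of 36 pairs over 0.1). Mice of different labels share no number.

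Members and lists were chosen with earlier results of these data known. Named are called members, up to 12 by adjusted p, and the 8 with the largest difference at 10 TPM or more between labels. In time, up to 8 rises and 8 falls among called members at 10 TPM or more are eligible, in WT mainly. Isg15, Ifit1, Ifit3, Oasl2, Mx1, Bst2, Gbp2, Igtp, Irgm1 and Usp18 are followed throughout, with a set of pathway genes. Named outside this rule, after their values were seen, are Adar, Dtx3l, Mx2, Irf8 and Siglech, and Iigp1, Tgtp1 and Irgm2 at 0 h. Values of 1 pathway gene are not reported here.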

Additional observations from a re-analysis of the deposited data

How the results depend on the processing

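The calls between labels rested on few genes, and the precision of 3 mice a group limits them. Shares of all genes are not given for the alternative fits. At 0 h the number of called members was 0 in the reported fit, 1 with DESeq2, 2 without a filter on low counts, 1 with only the groups compared, and 0 to 3 when 1 mouse was left out. At 4 h it was 0, 2, 2 and 3, and 0 to 2. At 8 h it was 0, 3 with DESeq2, 4 without a filter, and 0 to 2. At 24 h it was 0, 2, 1 and 5, and 0 to 1. The 24 h interaction had 1 without a filter (Oas1a) and 0 to 1 with a mouse left out. For the mean of 4 times the count was 4, then 1 with limma on log2(TPM + 1), 1 on log2(TPM + 0.5) and 1 to 17 with a mouse left out. From 4 to 8 h in WT it was 21, and 13 to 19 with a mouse left out, lowest without mouse 5. At 0 h the differences of Gbp2, Igtp and Rtp4 turned to -0.36, -0.36 and -0.26 without mouse 2 and reached 0.81, 0.79 and 0.73 without mouse 3. With the mouse as a replicate block, 40 members were called at 4 h against 0 h in both WT and cKO and 26 and 25 at 8 h against 4 h, within 1.5 times of the fit without it. The block changed 15 calls of members in the time comparisons, Bst2 at 24 h among them, and 1 of a pathway gene. The cause of these changes was not tested. TMM against RLE factors, removal of the ribosomal RNA gene Rn45s and a filter of 5 CPM in 3 libraries moved no count by over 1.5 times. The median over all genes shifted by over 0.1 in 24 h against 8 h in WT alone, by 0.1002 without Rn45s and 0.11 with limma on log2(TPM + 1) or log2(TPM + 0.5).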
